A study of Mus musculus with 14 samples.

Results

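The globin and erythroid haem genes were examined in RNA of C57Bl6 mouse fetuses measured on 14 two-colour arrays. The members were 9 genes, Hba-a1, Hba-x, Hbb-b1, Hbb-b2, Hbb-bh1, Hbb-y, Alas2, Bpgm and Tfrc, and a probe was taken when the platform annotation gave it 1 of these symbols and no other. This gave 9 probes of the 21582 in the table, in 7 genes. Hba-x and Tfrc had a pair of probes each, Hba-a1, Hbb-bh1, Hbb-y, Alas2 and Bpgm had 1 probe each, and Hbb-b1 and Hbb-b2, the adult beta globins, had none under that rule and were not analysed here.

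Mothers of the alcohol-fed group (n = 7) had ethanol at about 180 to 200 mg/dl over gestational days 15 to 18. Mothers of the pair-fed group (n = 7) were given maltose dextrin, which some label fields call maltose dextrose, over the same days. Before that, all mothers ate freely. Fetuses were delivered by caesarean section on gestational day 19. The sample was labelled with Cy5 and a common reference with Cy3, namely a pool of total RNA from 7 animals that fed freely throughout, which a label field also names a weight-matched control. The protocol gives 4 days of ethanol and the titles 5. The sources used here do not name the tissue, so it could not be checked against markers. They also do not say whether samples of a group were from different litters, so the p-values cover only the spread among these arrays, part of which may be technical.

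Haemoglobin is a tetramer of alpha-type and beta-type globin chains, each holding a haem group. In the mouse, Hba-x (zeta globin) and the beta-type genes Hbb-y (epsilon-y) and Hbb-bh1 (beta-h1) serve the primitive red cells of the yolk sac, and Hba-a1 and the adult beta genes serve the definitive red cells made by the fetal liver and later the bone marrow. Primitive red cells are largely replaced in the circulation before birth. Alas2 catalyses the first step of haem synthesis in red cell precursors, Tfrc takes up transferrin-bound iron, and Bpgm makes 2,3-bisphosphoglycerate, which lowers the oxygen affinity of haemoglobin. On the RefSeq gene map Hba-x is the neighbour of Hba-a1 and Hbb-bh1 the neighbour of Hbb-y.

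The sequences just before the start of 3 globin genes are shown because these genes stand for the embryonic and adult classes compared here. RefSeq (GRCm38.p6) held a promoter for 6 of the 9 members. Each line gives the 120 bases before the annotated start, on the gene's strand, 5′ to 3′, at chr11:32276480-32276599 (plus strand) for Hba-x, chr7:103853208-103853327 (minus strand) for Hbb-y and chr11:32283552-32283671 (plus strand) for Hba-a1. Capitals mark the CACCC box, the CCAAT box, the letters TATAA, the letters ATAAA (which overlap the former in a longer match) and the letters GATAA, searched on both strands.
Hba-x: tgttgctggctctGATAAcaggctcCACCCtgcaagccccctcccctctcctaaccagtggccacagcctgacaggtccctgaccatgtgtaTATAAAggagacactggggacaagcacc
Hbb-y: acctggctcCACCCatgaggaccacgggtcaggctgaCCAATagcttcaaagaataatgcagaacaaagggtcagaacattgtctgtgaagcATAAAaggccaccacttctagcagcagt
Hba-a1: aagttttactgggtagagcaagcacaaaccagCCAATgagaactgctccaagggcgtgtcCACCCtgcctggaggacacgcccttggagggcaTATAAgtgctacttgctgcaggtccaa
CACCC began 95 bases before the start in Hba-x, 111 in Hbb-y and 60 in Hba-a1. CCAAT began 83 bases before the start in Hbb-y and 88 in Hba-a1, and GATAA 107 bases before the start in Hba-x. TATAA began at 28 bases in Hba-x and 27 in Hba-a1, and ATAAA at 27 in Hba-x, where it overlaps TATAA, and at 28 in Hbb-y. Of 32851 promoter windows of this length, 31.7% held CACCC, 21.3% CCAAT, 11.8% TATAA, 20.2% ATAAA and 10.5% GATAA, so the letters are common and a match is a description only.

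All values below are log2 ratios to the reference after centring each array on its median, so that 0 is the middle of that array and a negative value is below that middle. Rising, falling and tests against the reference are all relative to it. Sample over reference is the likely direction, from the order of the channels, but it is not stated; if it is turned, every sign exchanges. Exact 0 and the table maximum recur as placeholders (2.57% to 14.6% of an array) and were treated as missing. Between arrays, r over the probes was 0.303 to 0.752, a description only. On 3 arrays, alcohol-fed 1, 5 and 7, 100% of the values below -1 were logs of ratios rounded to 3 decimals, against 52.8% to 60% on the other 11 arrays. All 3 lie in 1 group, so this feature cannot be told apart from the group for them, and results are given without them where that matters.

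**Figure D1:**
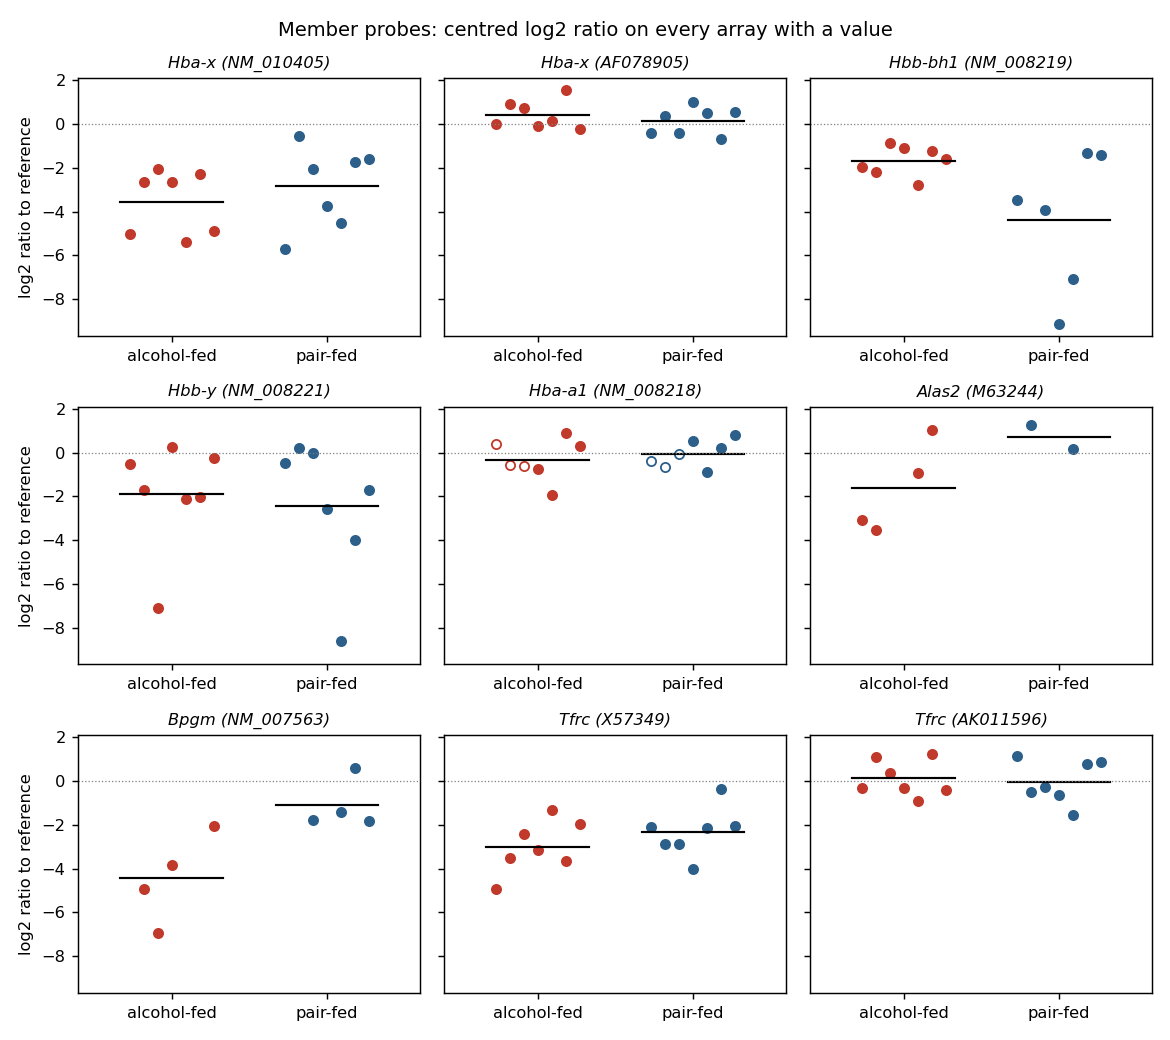
Centred log2 ratio to the reference (y axis) of each of the 9 member probes on every array with a value, alcohol-fed in red and pair-fed in blue, with a line at the group mean; open circles are Hba-a1 values that were between 0.002 and 0.009 as deposited. The NM_010405 probe of Hba-x and the X57349 probe of Tfrc lie below 0 on all 14 arrays, while the second probe of each gene straddles 0.

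Among the embryonic globins, the NM_010405 probe of Hba-x, the embryonic alpha-type chain, fell in both groups. On alcohol-fed arrays 1 to 7 it stood at -5.00, -2.64, -2.06, -2.62, -5.39, -2.28 and -4.90 (median -2.64). On pair-fed arrays 1 to 7 it stood at -5.69, -0.52, -2.05, -3.75, -4.51, -1.71 and -1.61 (median -2.05). All 14 arrays lay below 0 (13 of 14 as deposited, where pair-fed 2 stood at 0.16) and the groups overlapped. The mean was -3.56 ± 0.56 (SE) in the alcohol-fed group (limma adjusted p = 0.000203) and -2.84 ± 0.56 in the pair-fed group (limma adjusted p = 0.00171). These are bulk samples, in which fewer cells of a type and less RNA per cell cannot be told apart, and the reference is a single pool whose own spread is not in the test.

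Within the alcohol-fed group this probe separated the arrays along the rounding. The 3 arrays with rounded ratios stood at -5.10 ± 0.26 (SD, n = 3) and the other 4 at -2.40 ± 0.28 (SD, n = 4), with no overlap between them. Of 18119 probes with a value on all alcohol-fed arrays, 7.6% showed no overlap between these arrays. Without the 3 arrays the alcohol-fed mean was -2.40, still past the threshold (limma adjusted p = 0.0353). The difference between the groups then turned from -0.72 to 0.44, neither past the threshold (limma adjusted p = 0.9996 in both fits). The part of the rounding in this separation was not tested.

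The other Hba-x probe, AF078905, did not share this value. It ran from -0.24 to 1.56 in the alcohol-fed arrays and from -0.69 to 1.02 in the pair-fed arrays, and the groups overlapped. Its means were 0.43 ± 0.29 (SE) and 0.13 ± 0.29, neither past the threshold (limma adjusted p = 0.279 and 0.769). NM_010405 was lower than AF078905 on 14 of 14 arrays, with differences from -5.52 to -0.88 and a median of -3.69. The probes of Hba-x are therefore given separately. They are joined only in the mean of the embryonic probes and in an alternative below.

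Hbb-bh1, an embryonic beta-type chain, lay below 0 on all 13 arrays with a value, also as deposited. Alcohol-fed arrays 1 to 7 stood at -1.97, -2.19, -0.88, -1.08, -2.78, -1.24 and -1.61. Pair-fed arrays 1 and 3 to 7 stood at -3.45, -3.91, -9.14, -7.06, -1.31 and -1.42, and pair-fed 2 held a placeholder. The values on pair-fed 4 and 5 lay toward the low end of their arrays. As deposited they were -9.09 and -6.67, where the lowest values of those arrays were -9.83 and -8.71. After centring, 0.421% and 0.462% of the values of those arrays lay below -6. The pair-fed spread (SD 3.13, n = 6) was far wider than the alcohol-fed spread (SD 0.68, n = 7), and 99.3% of tested probes had a smaller SD in the pair-fed arrays.

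The pair-fed mean of Hbb-bh1, -4.38 ± 0.75 (SE), passed the threshold (limma adjusted p = 0.000633) and the alcohol-fed mean, -1.68 ± 0.69, did not (limma adjusted p = 0.0876). In a fit of the pair-fed arrays alone, where the narrow alcohol-fed spread does not enter, the pair-fed mean passed less strongly (limma adjusted p = 0.0157). The alcohol-fed mean passed in a fit of the alcohol-fed arrays alone (limma adjusted p = 0.00242), where the wide pair-fed spread does not enter. It also passed with array weights (limma adjusted p = 0.0351) and without pair-fed 4 (0.0291). It did not pass without the 3 rounded arrays, at -1.35 (limma adjusted p = 0.4025). Nor did it pass with any single alcohol-fed array left out (limma adjusted p = 0.109 to 0.173). Alcohol-fed minus pair-fed was 2.70 ± 1.02 (95% interval 0.54 to 4.87), with limma p = 0.0172 before and 0.9996 after adjustment, and an exact two-sided permutation p of 0.0274, unadjusted. Leaving out pair-fed 4, the lowest array, lowered the difference to 1.75. The groups overlapped.

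Hbb-y, the other embryonic beta-type chain, also varied widely, with a larger SD than 98.3% of tested probes in the alcohol-fed and 99.2% in the pair-fed arrays. Alcohol-fed arrays 1 to 7 stood at -0.53, -1.69, -7.09, 0.27, -2.10, -2.01 and -0.23. Pair-fed arrays 1 to 7 stood at -0.49, 0.20, -0.004, -2.56, -8.59, -4.01 and -1.71. As deposited, pair-fed 5 stood at -8.20 and alcohol-fed 3 at -6.48, where the lowest values of those arrays were -8.71 and -9.53. After centring, 0.462% and 0.401% of the values of those arrays lay below -6. In both groups 6 of 7 arrays lay below 0 and 1 lay above; as deposited 5 of 7 pair-fed arrays lay below. The means of -1.91 ± 0.89 (SE) and -2.45 ± 0.89 did not pass the threshold (limma adjusted p = 0.122 and 0.0569). The lowest values came from different arrays for the embryonic chains: alcohol-fed 3 and pair-fed 5 for Hbb-y, pair-fed 4 for Hbb-bh1, and pair-fed 1 for the NM_010405 probe of Hba-x. Without alcohol-fed 3 the alcohol-fed mean of Hbb-y was -1.05 and without pair-fed 5 the pair-fed mean was -1.43. The pair-fed mean passed the threshold without alcohol-fed 3, pair-fed 2 or pair-fed 3, with a lowest limma adjusted p of 0.0308.

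Hba-a1, the adult alpha chain, was the only adult globin with a probe. It and its neighbour copy Hba-a2 are near-identical, so the probe cannot be assigned to one of them with certainty. The deposited values on alcohol-fed arrays 1 to 7 were 0.003, 0.004, 0.006, -0.72, -1.52, 0.60 and 0.23, and on pair-fed arrays 1 to 7 they were 0.003, 0.009, 0.002, 0.60, -0.51, 0.05 and 0.18. On alcohol-fed arrays 1 to 3 and pair-fed arrays 1 to 3 the value thus sat just above 0, and between 23 and 80 probes of the same array held exactly that value. On the other 8 arrays at most 15 probes shared its value.

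Such near-0 values, above 0 and under 0.01, numbered 1787 over all arrays, against 681 between -0.01 and 0. They recurred on at least 6 arrays in 0.385% of all probes and in 23.8% of 84 ribosomal protein probes, which stand for abundant RNAs. Why they recur was not tested. After centring, the Hba-a1 mean was -0.32 ± 0.32 (SE) in the alcohol-fed group and -0.06 ± 0.32 in the pair-fed group (limma adjusted p = 0.480 and 0.914). On the 8 arrays without near-0 values the means were -0.37 ± 1.26 (SD, n = 4) and 0.17 ± 0.75 (SD, n = 4).

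Embryonic against adult globins were set side by side probe by probe, with no test, since the members were chosen with results known. On the 8 arrays where Hba-a1 had no near-0 value, the NM_010405 probe of Hba-x was below Hba-a1 on 8, with a median difference of -3.32, and Hbb-bh1 on 8, with a median difference of -2.03. Hbb-y was below it on 7 of the 8, with a median difference of -2.72, and the AF078905 probe of Hba-x on 3, with a median difference of 0.55. Over all arrays with a value the count was 13 of 14 with a median difference of -2.81 for NM_010405, 13 of 13 with -2.16 for Hbb-bh1, 11 of 14 with -1.01 for Hbb-y and 6 of 14 with 0.55 for AF078905, so the median of Hbb-y was much smaller there. The mean of the embryonic probes takes in both Hba-x probes, although these disagree. It was lower than Hba-a1 on 13 of 14 arrays, the exception being pair-fed 2, where Hbb-bh1 was missing. This difference was -1.36 ± 0.82 (SD, n = 7) in the alcohol-fed group and -2.17 ± 1.63 (SD, n = 7) in the pair-fed group. On the 8 arrays it was -1.17 ± 0.94 (SD, n = 4) and -3.04 ± 1.21 (SD, n = 4), negative on 8 of 8. These are differences between ratios to 1 pool, not between RNA levels.

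**Figure D2:**
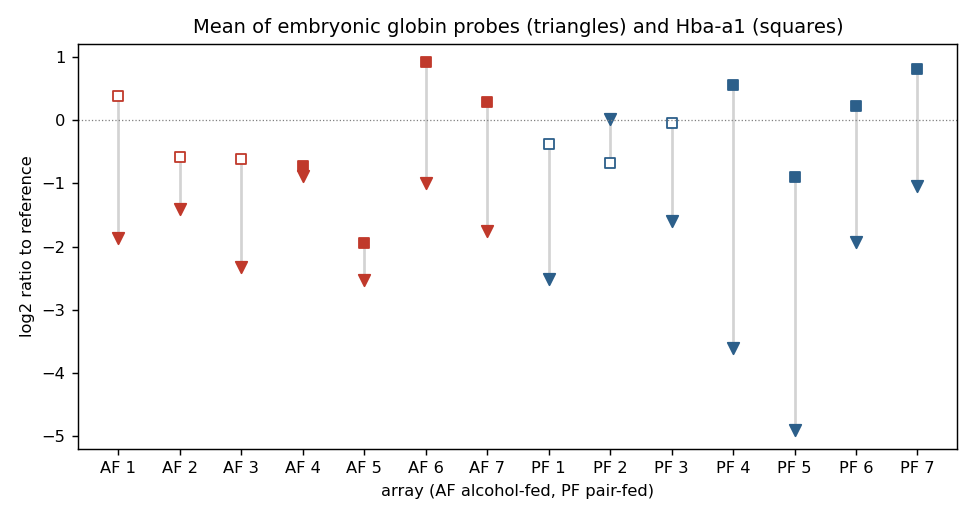
Mean log2 ratio to the reference of the embryonic globin probes (triangles) and the ratio of Hba-a1 (squares) on each array, alcohol-fed (AF, red) and pair-fed (PF, blue); open squares mark Hba-a1 values that were between 0.002 and 0.009 as deposited. The triangles take in both Hba-x probes, which disagree. The triangle lies below the square on 13 of 14 arrays, and above it on PF 2.

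Among the iron and metabolic members, Tfrc repeated the disagreement between probes. The X57349 probe fell in both groups, from -4.95 to -1.34 (median -3.14) in the alcohol-fed arrays and from -3.995 to -0.34 (median -2.16) in the pair-fed arrays. Its means were -2.99 ± 0.41 (SE; limma adjusted p = 5.44e-05) and -2.34 ± 0.41 (limma adjusted p = 0.000698), below 0 on 14 of 14 arrays, also as deposited. The AK011596 probe ran from -0.90 to 1.25 and from -1.56 to 1.16, with means of 0.12 ± 0.35 and -0.03 ± 0.35 (limma adjusted p = 0.821 and 0.963). X57349 was lower than AK011596 on 14 of 14 arrays, with a median difference of -2.82. AK011596 was also lower on the 3 rounded arrays (-0.896 to -0.306) than on the other 4 alcohol-fed arrays (-0.293 to 1.25), by a very narrow gap. X57349 overlapped between them. Of probes with a value on all alcohol-fed arrays, 7.6% showed no overlap between these arrays.

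Bpgm had a value on 4 arrays of each group. Alcohol-fed arrays 2, 3, 4 and 7 stood at -4.91, -6.94, -3.82 and -2.03, and pair-fed arrays 3, 5, 6 and 7 at -1.76, -1.39, 0.59 and -1.84. Every alcohol-fed value lay below every pair-fed value. The other arrays held exact 0, except alcohol-fed 6, which held the table maximum.

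Bpgm had the smallest p of the members between the groups. Alcohol-fed minus pair-fed was -3.32 ± 0.96 (SE), with a 95% interval of -5.41 to -1.23. The limma p was 0.00472 before and 0.9996 after adjustment over all tested probes. The exact two-sided permutation p of 0.0286 is the smallest that 4 against 4 allows. Of the 98 tested probes with values on 4 arrays of each group, as Bpgm has, 4 (4.08%) showed groups that did not overlap, against 0.115% of all 20876 tested probes, most of which have more values. Against the reference the alcohol-fed mean of -4.42 ± 0.68 passed (limma adjusted p = 0.00081) and the pair-fed mean of -1.10 ± 0.68 did not (limma adjusted p = 0.264). With 0 and the maximum kept as values the alcohol-fed mean became -0.14, no longer past the threshold (limma adjusted p = 0.962), and the difference turned to 0.66. The call against the reference thus rests on reading those values as placeholders.

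Alas2 had a value on 6 arrays and exact 0 on 8, too few for the test. Alcohol-fed arrays 1, 2, 5 and 6 stood at -3.07, -3.53, -0.95 and 1.03, and pair-fed arrays 2 and 5 at 1.28 and 0.17. The groups overlapped, and the exact two-sided permutation p was 0.20, where 0.0667 is the smallest possible.

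In all, 8 of the 9 probes were tested. Between the groups 0 of 8 passed, and limma called 0% of all tested probes. Before adjustment, p was under 0.05 for Bpgm and Hbb-bh1, against 4.22% of all tested probes. Against the reference 3 of 8 fell in the alcohol-fed group (Hba-x NM_010405, Tfrc X57349, Bpgm) and 3 of 8 in the pair-fed group (Hba-x NM_010405, Tfrc X57349, Hbb-bh1), and 0 of 8 rose in either. Of all tested probes 15.5% were called lower and 8.02% higher in the alcohol-fed group, and 13.5% and 7.86% in the pair-fed group. The Hba-x and Tfrc probes were called lower in both, as were 9.28% of all tested probes. Both groups share the reference, so calls made in both are not independent.

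**Figure D3:**
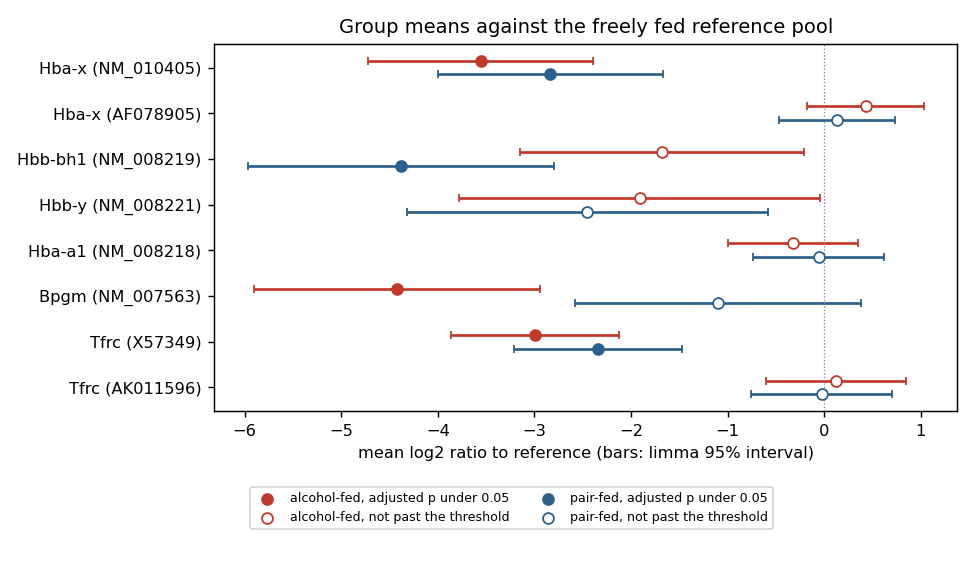
Mean log2 ratio to the reference (x axis) of the 8 tested member probes in the alcohol-fed (red) and pair-fed (blue) group, with limma 95% intervals; filled circles passed an adjusted p under 0.05. Each group has 3 filled circles, all below 0, and the intervals of both groups overlap for every probe except Bpgm, whose difference did not pass the adjusted test.

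The rest of the pathway was read from 5 gene lists, some of which hold members. Of the haem synthesis enzymes, 8 had a probe, with values on 5 to 9 arrays and a median of 6.5, where the median probe had 14. Thus 6 of the 8 (75.0%) could not be tested, against 3.27% of all probes. The testable enzymes were Alas1, which makes the first haem precursor in all tissues, and Alad, which catalyses the second step. Alad fell in the alcohol-fed group (-2.04 ± 0.61 (SE), limma adjusted p = 0.0291, 4 arrays) and stood at 0.25 ± 0.54 in the pair-fed group, a difference of -2.29 that did not pass (limma adjusted p = 0.9996). Alas1 stood at -2.78 ± 0.97 and -1.33 ± 0.97, neither past the threshold.

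Of 25 probes for haem and iron transport and breakdown, 8 fell and 0 rose in the alcohol-fed group (median -0.78). In the pair-fed group 9 fell and 1 rose (median -0.77), where the medians of all probes were 0.007 and -0.03. Probes are counted here, not genes, and the member probe Tfrc X57349 is among those that fell in both groups. Those that fell in the pair-fed group include both Steap3 probes (-2.09 and -1.36). Trf fell by 1 probe (-1.49 and -1.90), while its others, at -0.89 and -0.99 and at 0.29 and 0.40, were not called. Of all tested probes, 15.5% were called lower and 8.02% higher in the alcohol-fed group and 13.5% and 7.86% in the pair-fed group, and the counts of each list below are to be read against these shares. Ireb2, an iron sensor that binds the Tfrc mRNA, fell to -4.08 ± 0.50 (SE) and -3.38 ± 0.50 (limma adjusted p = 3.00e-05 and 0.000218). Hfe, a binding partner of the transferrin receptor, fell to -2.35 ± 0.43 and -2.03 ± 0.46 (limma adjusted p = 0.000987 and 0.00549). The probe that rose was Slc11a2, at 1.51 ± 0.37 in the pair-fed group (limma adjusted p = 0.00794). In the alcohol-fed group it stood at 0.91 ± 0.37 (limma adjusted p = 0.0778). Not called in either group were Fth1 (0.11 and 0.50), Ftl1 (0.64 and 0.22) and Hmox1 (0.22 and -0.06). Nor were Slc25a37 (0.76 and 0.40), Flvcr1 (0.47 and 0.57) and Hp (0.68 and 0.65). Tfr2, Cp and Hpx lay below 0 in both groups but were not called in both.

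Of 25 red cell membrane and enzyme probes, 8 fell and 2 rose in the alcohol-fed group (median -0.22), and 5 fell and 2 rose in the pair-fed group (median -0.08). Over all tested probes 15.5% and 13.5% fell and 8.02% and 7.86% rose, so the 2 that rose in each group lie at the share of all probes. The membrane skeleton genes Add1 (adducin) and Ank1 (ankyrin) fell in both, Add1 to -3.67 ± 0.39 (SE) and -3.60 ± 0.39 and Ank1 to -2.82 ± 0.48 and -2.57 ± 0.48. The blood group protein gene Rhd rose, to 3.41 ± 0.68 and 3.63 ± 0.68. Limma adjusted p for Add1, Ank1 and Rhd was at most 0.00191. Gypc also rose, to 1.18 and 0.84 (limma adjusted p = 0.00274 and 0.0227). Also called lower in both groups were Slc4a1 (-2.72 and -2.40), Car2 (-2.40 and -2.25) and a probe of Cat (-2.69 and -3.00). Their limma adjusted p was at most 0.00401, and Slc4a1 had values on 4 arrays of each group. Other membrane skeleton probes of the list were not called in either group. Sptb stood at 0.31 and 0.47, Dmtn at 0.69 and 0.22, Epb42 at -0.15 and -0.14 and Tmod1 at -0.22 and -0.15. The Add2 probes stood at 0.60 and 0.42 and at -0.10 and -0.008.

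Of 16 erythroid transcription factor probes, 3 fell and 2 rose in the alcohol-fed group and 4 fell and 3 rose in the pair-fed group, with medians of -0.21 and -0.05. These counts are of probes, not genes. In the pair-fed group Foxo3 and Nfe2 each had 1 probe called lower and another called higher. Foxo3 stood at -1.33 and 0.96, and Nfe2 at -1.74 and 1.10. The share that fell in the alcohol-fed group is near the 15.5% of all tested probes (13.5% in the pair-fed group), against 8.02% and 7.86% that rose. Myb, needed for definitive but not primitive red cell formation, fell to -5.86 ± 0.42 (SE) and -4.68 ± 0.42 (limma adjusted p = 1.20e-08 and 2.50e-07). Gfi1b, a repressor needed for red cell and platelet formation, fell to -2.06 ± 0.32 (SE) and -2.75 ± 0.32, with limma adjusted p of at most 0.00016. Zfpm1, the Gata1 cofactor, rose to 2.25 ± 0.34 in the alcohol-fed and 1.37 ± 0.34 in the pair-fed group (limma adjusted p = 0.000148 and 0.00936). Gata1 itself had a value on 4 arrays and was not tested. Klf1 (-0.60 and -0.21), Tal1 (0.60 and 0.07), Lmo2 (-0.09 and 0.004) and Ldb1 (0.19 and 0.34) were not called in either group. Of 8 erythropoietin signalling probes 2 fell in the alcohol-fed group and 3 in the pair-fed group and 0 rose, with medians of -0.08 and -0.28. Stat5a, which carries the receptor's signal, stood lowest at -4.86 ± 0.38 and -4.06 ± 0.38 (limma adjusted p = 5.10e-08 and 5.60e-07). Kitl, the ligand of the Kit receptor, fell to -1.27 ± 0.26 and -0.84 ± 0.26 by 1 probe (limma adjusted p = 0.00224 and 0.0298), while its other probe stood at 0.15 and -0.33. Cish fell in the pair-fed group only, to -1.37 ± 0.31 (limma adjusted p = 0.00547), and stood at -0.05 ± 0.31 in the alcohol-fed group. Epor (-0.82 and -0.22), Jak2 (0.33 and -0.09), Kit (-0.11 and -0.11) and Socs3 (0.75 and 0.11) were not called in either group. Between the groups 0 probes of the 5 lists passed, with 0% called over all probes.

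**Figure D4:**
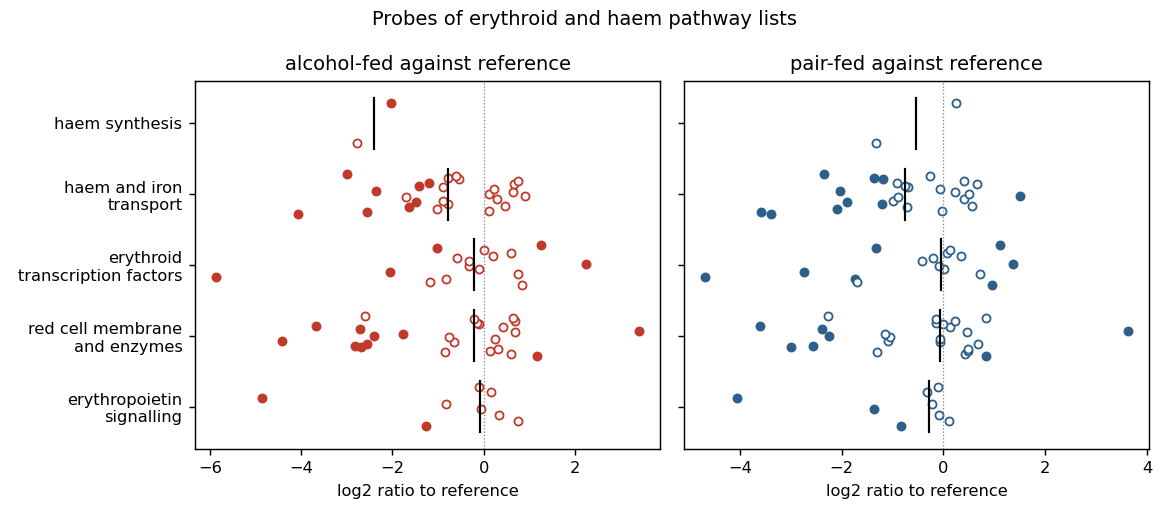
Mean log2 ratio to the reference (x axis) of every tested probe of the 5 lists in the alcohol-fed (left) and pair-fed (right) group; filled circles passed an adjusted p under 0.05 and black lines are list medians. The median for haem and iron transport lies at -0.78 and -0.77, and that for haem synthesis rests on 2 probes.

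Markers of other cell types were read the same way. Of 8 platelet and megakaryocyte probes 2 fell in each group, of 13 leukocyte probes 5 fell in each, and of 12 hepatocyte probes 3 fell in the alcohol-fed and 4 in the pair-fed group, with 0 rising in any, where 15.5% and 13.5% of all tested probes fell. The median ratio of the leukocyte probes ran over arrays from -1.49 to -0.32 in the alcohol-fed group and from -1.17 to 0.05 in the pair-fed group. For hepatocyte probes it ran from -0.81 to 0.11 and from -1.32 to -0.06, and for platelet probes from -1.13 to 0.13 and from -1.11 to -0.12. Their part in the globin and iron values was not tested.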

How the data were processed

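Total RNA was labelled in Cy5 (samples) and Cy3 (reference pool), per the labels' protocols. The authors deposited 1 log2 ratio per probe and array. The log2 base was read from the values, since on 3 arrays they are log2 of ratios rounded to 3 decimals. Scale, centring and direction are not stated, and the sources used here name no scanner, background correction or normalization. Spot signals were not analysed here, so brightness and background are unknown, and the number of arrays limits precision.

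Placeholders were set to missing, each array was centred on its median, and 20876 probes (at least 4 valued arrays per group) were fitted in limma 3.58.1 (R 4.3.3, lmFit and eBayes, all 14 arrays, two-sided, Benjamini-Hochberg over all tested probes, threshold 0.05; checked on simulated data). SE is limma's, pooled over groups; SD is between arrays. Contrasts against the reference test the ratio against 0. Probes were named by the platform annotation, which is old (16635 with 1 symbol, 113 with several, 4834 unnamed here). By gene number 15957 matched RefSeq (GRCm38.p6) and 0 symbols differed. The highest correlation between arrays was 0.752, so no column is a copy of another; repeat hybridisations of 1 sample or litter were not tested.

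Every member probe is named, and of each list at most the 3 called probes with the smallest p. Some other probes are given beside them, where these went another way, were not called or, in the red cell list, were also called lower. The members and lists were chosen with earlier results of these data known. Arrays were not paired by replicate number in the main fit. By number, 2 of 7 same-numbered pairs correlated above 0.1 in their deviations from group means. This check cannot show whether equal numbers stand for matched animals or a shared run. Alternatives were other normalizations, filters, eBayes settings, array weights, averaging probes, single arrays left out, an exact permutation test, and, added after the data were seen, near-0 values set to missing and the rounded arrays left out.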

Additional observations from a re-analysis of the deposited data

Results flagged for a closer look

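Alcohol-fed 3 stood far from the rest of its group for Hbb-y, at -7.09, where the other 6 alcohol-fed arrays lay between -2.10 and 0.27. It was the single extreme array among 17 groups of member values examined, and chance marks about 1 group in 20. The table maximum and the zeros of Bpgm and Alas2 were not part of this comparison.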

How the results depend on the processing

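The number of member probes past the threshold stayed within 1.5 times the main count for every contrast and alternative run with limma, at 2 to 4 in the alcohol-fed and 3 to 4 in the pair-fed group, and at 0 between the groups. By the exact permutation test, unadjusted, 2 probes lay under 0.05 between the groups, Bpgm and Hbb-bh1. The embryonic minus adult difference stayed negative throughout, at -1.56 to -1.21 (alcohol-fed) and -2.64 to -1.84 (pair-fed) without single arrays. Over 20876 probes, leaving out the rounded arrays lowered all calls in the alcohol-fed group from 4913 to 1999 (20749 probes tested), and array weights raised them to 6255; a fit of the pair-fed arrays alone lowered theirs from 4450 to 2906.

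Signs turned as follows; the cause was not tested except where the setting itself joins probes. With probes averaged per gene, the values of Hba-x AF078905 became those of the gene, -1.56, -1.35 and, between groups, -0.21, and those of Tfrc AK011596 became -1.44 and -0.25. With values as deposited and with quantile normalization, Tfrc AK011596 in the pair-fed group became 0.080 and 0.073 and Hba-a1 0.049 and 0.024; with near-0 values missing, Hba-a1 became 0.17. With placeholders kept, Bpgm between groups became 0.66. Without the rounded arrays the differences between groups became 0.44 for Hba-x NM_010405 and -0.18 for Hbb-y. None of these had passed before. The gene averages against the reference did pass, with limma adjusted p of 0.00576 and 0.0143 for Hba-x and 0.00332 for Tfrc in the alcohol-fed group. Without single arrays, values that crossed 0 ran, between groups, from -0.47 to 0.006 (Hba-a1), -0.48 to 1.40 (Hbb-y) and -0.11 to 0.34 (Tfrc AK011596). In the pair-fed group they ran from -0.202 to 0.082 (Hba-a1), -0.014 to 0.27 (Hba-x AF078905) and -0.22 to 0.23 (Tfrc AK011596), and in the alcohol-fed group from -0.068 to 0.29 (Tfrc AK011596). Hbb-y in the pair-fed group passed with only probes on all 14 arrays (limma adjusted p = 0.043). With at least 3 arrays per group, an alternative added later, Bpgm in the alcohol-fed group stayed between -5.22 and -3.59 without single arrays. With the replicate block, 0 member probes passed and the differences were -2.68 for Bpgm and 2.79 for Hbb-bh1. The labels give the arrays of a block only a shared number, and 4 of 14 correlated best with their own.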

Other observations

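Correlations between member probes over arrays are given as a description. For 6 probes (Hba-a1, Alas2 and Bpgm left out for near-0 or missing values) 15 pairs gave Pearson r from -0.48 to 0.55 and Spearman rho from -0.53 to 0.46, with lowest permutation p adjusted over the 15 pairs of 0.62 and 0.644. The pair with the highest r was Hbb-bh1 with Tfrc AK011596 (r = 0.55, rho = 0.43, n = 13, permutation p = 0.0489 and 0.14). It dropped to r = 0.17 without the 2 arrays farthest from the Hbb-bh1 median, so it rests on them, and was 0.35 and 0.79 within the alcohol-fed and pair-fed arrays. Within groups other pairs ran widely, as with Hba-x AF078905 and Tfrc AK011596 at r = 0.90 in the alcohol-fed and -0.52 in the pair-fed arrays, and the difference was not tested. In the alcohol-fed arrays, which include the 3 with rounded ratios, Hba-x NM_010405 reached 0.77 with Tfrc AK011596 and 0.71 with Hbb-bh1.

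The probes most like each member are a description over 14 arrays and 11468 candidate probes with 1 symbol, which share array, reference and centring. The highest r among so many candidates is high by their number, so it is not to be set against the few members. For Hba-x NM_010405 the closest were Gabrr1 (r = 0.94), Sh2d4a (0.87) and Kif20a (0.87), and the closest member with values on all arrays, Tfrc AK011596 (0.30), ranked 1943. For Hba-x AF078905 they were Psg23 (0.92), Csnk1e (0.91) and Dtx2 (0.89), and for Hbb-y Trpv2 (0.82), Ccl9 (0.81) and Zfp281 (0.80). For Hba-a1 they were Maged1 (0.87), Dctn6 (0.85) and Timeless (0.84). For Tfrc X57349 they were Tmem33 (0.87), Nrep (0.83) and Trav6d-6 (0.82), and for Tfrc AK011596 Piwil2 (0.85), Fosb (0.82) and Trav6d-6 by another probe (0.81).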
